A study of Homo sapiens with 80 samples.

Results

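The genes described here encode mechanosensitive and volume-regulated ion channels of Jurkat T cells: PIEZO1, TMEM63A, TMEM63B, TRPM7, LRRC8A, LRRC8B, LRRC8C, LRRC8D, KCNA3 and KCNN4. They were chosen by symbol, each matched to its Ensembl gene, and make up 10 of the 60663 genes with a usable record in the count table. Libraries were prepared by rRNA depletion, so they also hold nascent transcripts without a poly-A tail. Jurkat is a single leukaemic T-cell clone, and 80 libraries in 15 groups were sequenced from it.

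In the first experiment, cells were spun at 9 g in a pipette centrifuge. The groups hypg20s, hypg75s, hypg3, hypg5, hypg7, hypg9 and hypg15 were spun for 20 s, 75 s, 3 min, 5 min, 7 min, 9 min and 15 min, all within 15 min spent in the pipette, and each was compared with Ctrl, which spent 15 min at 1 g. The group hypg60 was spun for 60 min and compared with Ctrl60, which spent 60 min at 1 g. The column names of all 6 Ctrl60 libraries, and of no other group, mention HEPES, so a difference in medium cannot be told apart from the other differences between Ctrl60 and the groups compared with it. Each group held 6 libraries except hypg15, which was used with 5, because its library 75 had no counts on several whole chromosomes. In the second experiment, cells were spun in a tabletop centrifuge (300 g, 5 min) and lysed 1 min, 4 min or 15 min later (wait1min, wait4min, wait15min), or were heated to 42 °C for 5 min (heat), and were compared with uncentrifuged cells (Ctrl300), with 4 libraries in each group. These waiting times are those of the sample labels, while the column names of the count table call wait1min instant and wait4min 1 min. Vessels and cell density differed between the experiments, and hypg3 and hypg15 were numbered after all other libraries, so that numbering and these times cannot be told apart. No label says that the libraries of a group came from separate cultures, and p-values therefore measure the spread between these libraries.

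Mechanosensitive channels open when tension in the plasma membrane rises and let cations into the cell. Volume-regulated anion channels open when a cell swells and release chloride and organic osmolytes, while potassium leaves through potassium channels, so that water follows and volume is restored. T cells use the same potassium channels to hold the membrane potential that drives calcium entry during activation.

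The total number of assigned read pairs per library ran from 22634465 to 41893490, with a median of 30259450 over the 79 libraries used. In the 9 g experiment, totals ran from 27314458 to 36083081 in Ctrl, from 26774928 to 33866931 in Ctrl60, from 31639018 to 37940325 in hypg20s and from 28280044 to 36404107 in hypg75s. They ran from 23538676 to 36406463 in hypg3, from 29577786 to 38434879 in hypg5, from 28642500 to 41893490 in hypg7 and from 29180525 to 40267956 in hypg9. The group hypg15 had the lowest median, 25435259, and ran from 22634465 to 26438639, overlapping with other groups, while hypg60 ran from 25769027 to 35705594. In the 300 g experiment, totals ran from 28665290 to 41220541 in Ctrl300, from 24417717 to 30259450 in wait1min, from 25573195 to 29575204 in wait4min, from 24861939 to 29643104 in wait15min and from 29165509 to 31175548 in heat.

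The cells were checked against markers. All 10 of 10 T-cell markers had a median of at least 10 counts, their summed level was 2383 to 3751 TPM per library (counts divided by exon length and scaled to the same total in each library), and CD3D was the most abundant at a mean of 1201 TPM. Of 4 B-cell markers, 1 reached that median, CD79A at 90.0 TPM, and the 4 summed to 75.1 to 102 TPM. Myeloid markers summed to 0.220 to 1.59 TPM, with CD14 the most abundant at 0.492 TPM, and epithelial and stromal markers to 1.15 to 2.26 TPM, with COL1A1 at 1.51 TPM. Erythroid and platelet markers summed to at most 0.107 TPM, HBB was the most abundant at 0.00300 TPM, and PF4 had a count of 0 in every library. The summed T-cell markers were lowest in hypg15, at 2860 ± 299.9 TPM (SD, n = 5) against 3297 ± 23.6 (SD, n = 6) in Ctrl, and the B-cell markers went from 96.6 ± 2.90 TPM in Ctrl300 to 77.0, 78.9 and 79.9 in wait1min, wait4min and wait15min, while the myeloid markers went from 0.521 to 0.994, 0.973 and 1.13 TPM (n = 4 each). Whether these shifts have a part in the values of hypg15 or of the 300 g groups was not tested. In bulk libraries, fewer cells of a type and less RNA per cell cannot be told apart.

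Per transcript length, the channels differed widely in level. PIEZO1, a cation channel opened by membrane stretch, was the most abundant, with a mean of 85.5 TPM over the control libraries and rank 1163 of 35230 genes with counts. LRRC8A, the obligatory subunit of the volume-regulated anion channel, followed at 35.5 TPM. Next stood the stretch-activated channels TMEM63A and TMEM63B at 11.5 and 10.9 TPM, then LRRC8D, a partner subunit that favours organic osmolytes, at 9.76 TPM and KCNA3, the voltage-gated potassium channel of T cells, at 9.61 TPM. These means pool the control groups: per kilobase, KCNA3 stood slightly above LRRC8D in Ctrl and Ctrl60 and below it in Ctrl300. TRPM7, a channel for magnesium and calcium fused to a kinase, stood at 5.71 TPM. The partner subunits LRRC8B and LRRC8C were lower at 2.05 and 1.29 TPM, and KCNN4, a potassium channel opened by calcium through bound calmodulin, was the lowest at 0.314 TPM, rank 18429.

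No member was too low to test: all 10 passed the filter on low counts in all 15 comparisons. KCNN4 came closest to the filter, with 8 to 28 counts per library and a median of 17, so that modest changes in it were not detectable at this depth. Among 8 relatives of the members, 4 were tested (TMEM63C, LRRC8E, KCNN1 and KCNN2), and KCNN1 was too low in wait4min against Ctrl300 and in wait15min against wait1min. The other 4 were too low in every comparison: PIEZO2 had 0 to 5 counts per library, TRPM6 0 to 4, KCNA2 0 to 9 and KCNN3 2 to 16.

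The genes lie on several chromosomes of GRCh38, but 3 of them are neighbours. LRRC8B (ENSG00000197147, chr1:89524829-89597861), LRRC8C (ENSG00000171488, chr1:89633072-89769903) and LRRC8D (ENSG00000171492, chr1:89821014-89936611) follow each other on chromosome 1, while LRRC8A (ENSG00000136802) lies on chromosome 9. KCNA3 (ENSG00000177272, chr1:110672465-110674940, minus strand) has a single exon. PIEZO1 (ENSG00000103335) lies on chromosome 16, TMEM63A (ENSG00000196187) on 1, TMEM63B (ENSG00000137216) on 6, TRPM7 (ENSG00000092439) on 15 and KCNN4 (ENSG00000104783) on 19. The GC content of each gene's longest transcript in GENCODE 29 split them: LRRC8C had 38.1%, LRRC8B 39.0%, TRPM7 39.6% and LRRC8D 42.8%, whereas TMEM63A had 51.7%, TMEM63B 57.3%, LRRC8A 57.6%, KCNA3 57.8%, KCNN4 61.3% and PIEZO1 64.3%.

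The promoters of the 4 members that rose most after 300 g and of LRRC8A, which fell, are shown because these members moved together or against each other. They are credited to RefSeq (GRCh38.p14), in which all 10 members were matched, by 15 entries of 35116, and hold 250 bases before and 50 after the start, written 5′ to 3′ on the gene's strand. They span chr15:50686748-50687047 (minus strand) for TRPM7, chr1:89524579-89524878 (plus) for LRRC8B, chr1:89632870-89633169 (plus) for LRRC8C, chr1:110674891-110675190 (minus) for KCNA3 and chr9:128881883-128882182 (plus) for LRRC8A. Capitals mark matches, on either strand, to the E-box CACGTG, the cyclic AMP response element TGACGTCA, the AP-1 element TGANTCA, the CCAAT box CCAAT, the GC box GGGCGG or the TATA box TATAAA.
TRPM7: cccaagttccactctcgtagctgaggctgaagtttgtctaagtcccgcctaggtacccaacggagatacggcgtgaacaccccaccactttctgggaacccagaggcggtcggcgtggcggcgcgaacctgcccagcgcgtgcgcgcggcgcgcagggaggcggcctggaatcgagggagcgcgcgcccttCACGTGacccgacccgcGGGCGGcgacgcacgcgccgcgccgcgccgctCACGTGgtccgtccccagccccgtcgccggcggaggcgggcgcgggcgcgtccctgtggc
LRRC8B: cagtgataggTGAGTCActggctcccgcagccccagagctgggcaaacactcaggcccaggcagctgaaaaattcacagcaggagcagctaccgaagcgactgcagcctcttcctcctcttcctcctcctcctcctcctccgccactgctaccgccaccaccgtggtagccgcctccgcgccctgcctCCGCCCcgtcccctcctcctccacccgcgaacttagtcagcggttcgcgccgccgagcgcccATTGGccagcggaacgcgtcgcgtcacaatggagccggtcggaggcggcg
LRRC8C: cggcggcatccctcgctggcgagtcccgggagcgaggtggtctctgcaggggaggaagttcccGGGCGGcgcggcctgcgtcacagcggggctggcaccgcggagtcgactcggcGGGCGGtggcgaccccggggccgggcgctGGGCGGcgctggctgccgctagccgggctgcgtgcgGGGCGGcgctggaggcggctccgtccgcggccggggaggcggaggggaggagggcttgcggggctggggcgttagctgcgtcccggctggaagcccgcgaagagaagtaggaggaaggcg
KCNA3: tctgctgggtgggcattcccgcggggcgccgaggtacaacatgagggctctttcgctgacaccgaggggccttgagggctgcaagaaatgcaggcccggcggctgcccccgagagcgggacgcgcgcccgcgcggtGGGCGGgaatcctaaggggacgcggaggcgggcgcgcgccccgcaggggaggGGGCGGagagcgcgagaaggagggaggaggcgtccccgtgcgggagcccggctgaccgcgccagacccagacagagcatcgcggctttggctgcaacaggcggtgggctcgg
LRRC8A: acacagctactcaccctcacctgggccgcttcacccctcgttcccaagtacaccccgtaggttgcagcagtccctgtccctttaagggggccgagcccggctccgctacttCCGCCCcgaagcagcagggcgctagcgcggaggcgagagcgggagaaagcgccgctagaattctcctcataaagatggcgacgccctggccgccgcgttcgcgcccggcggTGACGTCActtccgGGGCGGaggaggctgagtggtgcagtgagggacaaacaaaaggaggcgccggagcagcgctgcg

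The promoter of TRPM7 held 2 E-boxes, starting at -59 and -10 from the start site, and 1 GC box. An E-box occurs in 7.26% of all 35116 promoters of this length and a GC box in 45.0%. LRRC8B had 1 AP-1 element (7.71% of promoters), 1 CCAAT box (34.6%) and 1 GC box, LRRC8C 4 GC boxes and KCNA3 2. LRRC8A had a cyclic AMP response element (1.85% of promoters) at -28 and 2 GC boxes. A TATA box (11.5% of promoters) was in none of these 5. No motif other than the GC box was shared by the 4 promoters whose genes rose, and a match is a description of the letters, not a site or a cause.

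Some libraries stood apart from their group before any comparison. In hypg60, library 44 had 48.9 CPM of TRPM7 (counts scaled to library size with edgeR's TMM factors) where the other 5 had 21.7 to 28.6. The same library had 13.1 CPM of LRRC8B against 3.81 to 7.11 and 8.74 CPM of LRRC8C against 4.01 to 4.45. Library 9 was the highest of Ctrl60 for TRPM7, LRRC8B, LRRC8C and KCNA3 (47.1, 12.1, 10.0 and 17.0 CPM), and library 3 was the highest of Ctrl for the same genes (42.1, 11.1, 8.35 and 13.9 CPM). A single library was likewise the highest for all these genes in hypg75s (library 21), hypg5 (25), hypg9 (39) and hypg15 (77). Results that rest on libraries 3, 9 or 44 are given with and without them, while libraries 21, 25 and 39 were not left out.

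Between the controls of 15 min and 60 min, 0 of 10 members passed edgeR's quasi-likelihood test, where 0.0124% of all genes tested did (0.00621% higher and 0.00621% lower). A gene passed, or was called, at a Benjamini-Hochberg adjusted p under 0.05 over all genes tested, and its log2 fold change is positive where the exposed libraries are higher. Each fit scaled only its own groups while CPM were scaled over a whole experiment, so fold changes differ from ratios of mean CPM, most of all in heat, where small values can have opposite signs on the 2 scales. The count at an unadjusted p under 0.05 was 0 as well (578 of all 16109 genes), and DESeq2 also called 0 members. PIEZO1 had 403, 416 and 424 CPM (lowest, median and highest) in Ctrl and 402, 411 and 426 in Ctrl60. The ranges overlapped for every member.

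PIEZO1 was upregulated at every 9 g time point. In hypg20s its lowest, median and highest level was 423, 448 and 490 CPM, in hypg75s 487, 497 and 527, and in hypg3 483, 532 and 549. It stood at 456, 467 and 516 CPM in hypg5, 452, 481 and 502 in hypg7 and 474, 486 and 531 in hypg9. The libraries of hypg15 had 511, 568, 502, 484 and 602 CPM, and hypg60 had 461, 533 and 590. From hypg75s to hypg60 all libraries lay above all of their controls, while hypg20s overlapped with Ctrl at its lower end. In edgeR's quasi-likelihood test the log2 fold change was 0.13 (SE 0.04, adjusted p = 0.0279, higher in 6 of 6 libraries) after 20 s and 0.29 (SE 0.03, adjusted p = 1.43e-05, 6 of 6) after 75 s. It was 0.32 (SE 0.03, adjusted p = 2.34e-05, 6 of 6) after 3 min, 0.20 (SE 0.04, adjusted p = 0.00967, 6 of 6) after 5 min, 0.20 (SE 0.04, adjusted p = 0.00352, 6 of 6) after 7 min and 0.25 (SE 0.03, adjusted p = 0.000209, 6 of 6) after 9 min. The largest values were 0.36 (SE 0.06, adjusted p = 0.00011, 5 of 5) after 15 min and 0.37 (SE 0.06, adjusted p = 0.000499, 6 of 6) after 60 min.

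Of all 15638 genes tested in the 8 comparisons at 9 g, 171 were called higher in all of them (1.09%), and PIEZO1 was the 1 member among these. The order of its mean levels was hypg15, hypg60, hypg3, hypg75s, hypg9, hypg5, hypg7, hypg20s, Ctrl and Ctrl60, and of all neighbours in that order, hypg20s and Ctrl were the pair that differed by more than the larger SD (455 ± 25.8 against 415 ± 7.34 CPM, n = 6 each). Differences between the time points themselves were not tested, and the 7 comparisons with Ctrl share its libraries. When fold changes were corrected for GC content, the PIEZO1 call ended after 20 s (0.03, adjusted p = 0.634), 5 min (0.09, adjusted p = 0.0926) and 15 min (0.06, adjusted p = 0.319) and held after 75 s, 3 min, 7 min, 9 min and 60 min, at 0.11 to 0.20. The call after 20 s also ended with library totals in place of TMM (0.12, adjusted p = 0.0595) and in a single model of all groups (0.13, adjusted p = 0.0621).

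TMEM63A, which conducts cations under high membrane tension, was upregulated in 6 of the 8 comparisons. Its lowest, median and highest level was 48.4, 52.0 and 54.5 CPM in Ctrl, 55.6, 60.0 and 62.4 in hypg75s and 59.8, 62.3 and 70.9 in hypg3. The libraries of hypg15 had 62.5, 66.5, 62.7, 64.5 and 68.5 CPM, and hypg60 had 53.7, 63.9 and 70.6 where Ctrl60 had 48.0, 51.4 and 53.5. All libraries of these 4 groups lay above their controls. The log2 fold change was 0.22 (SE 0.04, adjusted p = 0.00118, 6 of 6 libraries higher) after 75 s, 0.26 (SE 0.05, adjusted p = 0.000569, 6 of 6) after 3 min, 0.33 (SE 0.05, adjusted p = 4.41e-05, 5 of 5) after 15 min and 0.32 (SE 0.06, adjusted p = 0.00159, 6 of 6) after 60 min. It also rose after 7 min (0.16, adjusted p = 0.0164, 6 of 6, overlapping with Ctrl) and 9 min (0.20, adjusted p = 0.00818, 6 of 6, no overlap). After 20 s (0.09, adjusted p = 0.116, 5 of 6) and 5 min (0.13, adjusted p = 0.0569, 6 of 6) it missed the threshold, and without Ctrl library 3 the value after 5 min passed it (0.15, adjusted p = 0.0465). All 6 calls held with the correction for GC content, at 0.13 to 0.22, and the call after 7 min ended without the filter on low counts (adjusted p = 0.0572). The order of mean levels was hypg15, hypg60, hypg3, hypg75s, hypg9, hypg7, hypg5, hypg20s, Ctrl and Ctrl60, again with hypg20s and Ctrl as the pair of neighbours apart by more than the larger SD.

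TMEM63B, its paralogue, was called in 2 of the 8 comparisons. Its level was 20.3, 21.7 and 22.7 CPM (lowest, median and highest) in Ctrl, 21.9, 24.5 and 25.2 in hypg3, and 23.0, 24.7, 25.6, 22.9 and 24.7 in the libraries of hypg15. The groups hypg3 and Ctrl overlapped, and hypg15 lay just above Ctrl. TMEM63B rose by a log2 fold change of 0.13 (SE 0.05, adjusted p = 0.0439, 6 of 6 libraries) after 3 min and 0.16 (SE 0.06, adjusted p = 0.0294, 5 of 5) after 15 min. Both calls were weak: the first ended without Ctrl library 3 (0.12, adjusted p = 0.0856), the second without library 77 (0.15, adjusted p = 0.0617) or library 78 (0.14, adjusted p = 0.0826), both ended without the filter on low counts (adjusted p = 0.251 and 0.207), and with the correction for GC content the direction turned to -0.00 and -0.05. In the other comparisons at 9 g it stood between -0.02 and 0.12 and was not called.

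LRRC8A was called higher at the first 3 time points of 9 g. Its lowest, median and highest level was 84.1, 89.8 and 91.9 CPM in Ctrl, 95.6, 102 and 106 in hypg20s, 95.3, 99.8 and 110.5 in hypg75s and 99.6, 104.5 and 111 in hypg3. Every library of these 3 groups lay above every Ctrl library. The log2 fold change was 0.19 (SE 0.03, adjusted p = 0.00249, 6 of 6) after 20 s, 0.19 (SE 0.03, adjusted p = 0.000748, 6 of 6) after 75 s and 0.21 (SE 0.03, adjusted p = 0.000215, 6 of 6) after 3 min. From 5 min to 60 min it stood between -0.00 and 0.07 and was not called, with group ranges overlapping the controls, and the difference from the first 3 time points was not tested. In hypg5 the overlap rested on library 25 (81.5 CPM), as the others lay at 94.0 to 101, and no fit left out library 25. In the order of mean levels (hypg3, hypg20s, hypg75s, hypg5, hypg7, hypg9, hypg15, Ctrl, Ctrl60, hypg60), hypg75s and hypg5 were the pair of neighbours that differed by more than the larger SD. With the correction for GC content the call held after 20 s (0.11, adjusted p = 0.014), ended after 75 s (0.07, adjusted p = 0.107) and 3 min (0.07, adjusted p = 0.091), while LRRC8A was called lower after 15 min (-0.17, adjusted p = 0.0039) and 60 min (-0.15, adjusted p = 0.00694).

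**Figure D1:**
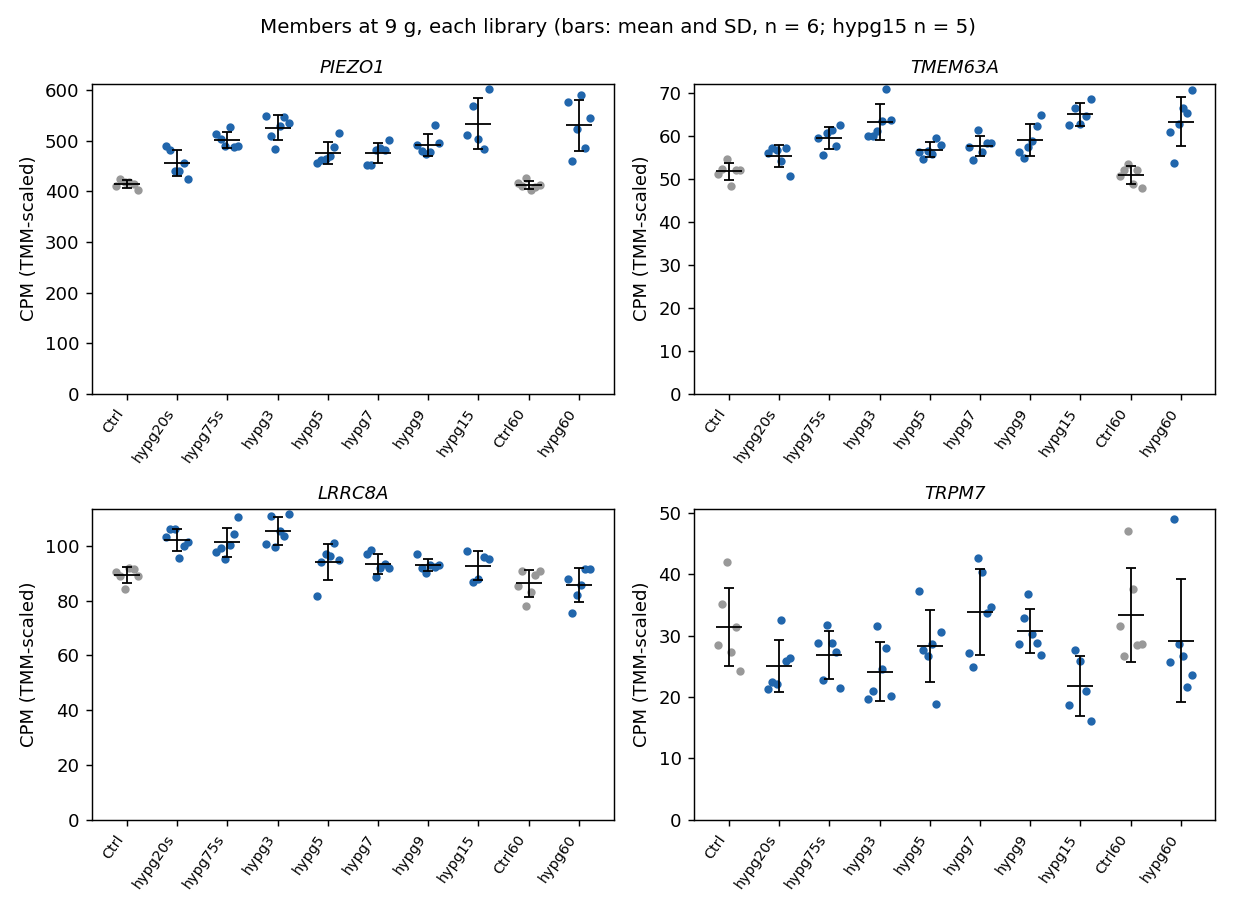
Levels of PIEZO1, TMEM63A, LRRC8A and TRPM7 in TMM-scaled CPM (vertical axis) in each library of the 9 g experiment (points), by group, with the group mean and SD (bars, n = 6, hypg15 n = 5). From hypg75s on, all PIEZO1 points lie above the controls, LRRC8A is above Ctrl in hypg20s, hypg75s and hypg3, and for TRPM7 library 44 of hypg60 stands at 48.9 CPM.

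Of the partner subunits of LRRC8A, LRRC8D was called lower after 3 min and 15 min, and LRRC8B and LRRC8C after 15 min, when LRRC8A was not called. LRRC8D had 20.5, 21.5 and 22.0 CPM (lowest, median and highest) in Ctrl, 15.0, 17.1 and 19.2 in hypg3, and 15.0, 16.5, 14.9, 16.3 and 11.4 in the libraries of hypg15. Both groups lay below all Ctrl libraries. LRRC8D was downregulated, with a log2 fold change of -0.35 (SE 0.06, adjusted p = 0.000396, lower in 6 of 6 libraries) after 3 min and -0.53 (SE 0.09, adjusted p = 0.000139, 5 of 5) after 15 min. LRRC8B had 6.75, 7.88 and 11.1 CPM in Ctrl and 4.69, 6.46, 5.83, 5.04 and 3.61 in hypg15, and LRRC8C had 5.81, 6.46 and 8.35 in Ctrl and 4.14, 4.67, 4.52, 4.26 and 2.44 in hypg15. Again all libraries of hypg15 were below all of Ctrl. The log2 fold change after 15 min was -0.70 (SE 0.15, adjusted p = 0.00134, 5 of 5) for LRRC8B and -0.77 (SE 0.15, adjusted p = 0.00063, 5 of 5) for LRRC8C.

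With the correction for GC content, LRRC8D was not called after 3 min (-0.10, adjusted p = 0.187), and after 15 min LRRC8D (-0.25, adjusted p = 0.00524) and LRRC8C (-0.25, adjusted p = 0.0346) were called while LRRC8B was not (-0.21, adjusted p = 0.05002). In the other comparisons at 9 g none of the 3 was called with all libraries, with log2 fold changes from -0.38 to 0.14. In the order of the LRRC8B and LRRC8C means at 9 g no neighbours differed by more than the larger SD, with hypg7 highest and hypg15 lowest, and for LRRC8D hypg3 and hypg15 were the pair that did.

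TRPM7 had 24.3, 30.0 and 42.1 CPM (lowest, median and highest) in Ctrl, 19.7, 22.7 and 31.5 in hypg3, and 18.6, 27.7, 25.9, 21.0 and 16.0 in hypg15. Both groups were low on average but overlapped with Ctrl. TRPM7 fell after 3 min (log2 fold change -0.41, SE 0.14, adjusted p = 0.0341, lower in 5 of 6 libraries) and after 15 min (-0.53, SE 0.15, adjusted p = 0.00795, 5 of 5). The call after 3 min rested on Ctrl library 3, without which it was -0.30 (adjusted p = 0.0856), and ended with library totals (adjusted p = 0.0694) and in a single model of all groups (adjusted p = 0.0600). Neither call held with the correction for GC content (-0.05, adjusted p = 0.603, and -0.06, adjusted p = 0.541). After 20 s it stood at -0.33 (adjusted p = 0.0860, 5 of 6), which DESeq2 called (adjusted p = 0.0440). No neighbours in its order of means at 9 g differed by more than the larger SD.

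After 60 min, the result for these genes turned on libraries 9 and 44. With all libraries, LRRC8B, LRRC8C, LRRC8D and TRPM7 stood at -0.20, -0.38, -0.21 and -0.18 and none was called. Without library 44 all 4 were downregulated: LRRC8B by a log2 fold change of -0.52 (adjusted p = 0.0455), LRRC8C -0.62 (adjusted p = 0.00414), LRRC8D -0.31 (adjusted p = 0.0126) and TRPM7 -0.40 (adjusted p = 0.0227). TMEM63B was then called higher (0.16, adjusted p = 0.0307). Without library 9 none of the 4 was called, at 0.0178 for LRRC8B, whose direction turned, -0.18 for LRRC8C, -0.16 for LRRC8D and -0.0172 for TRPM7. Without libraries 9 and 44, LRRC8C (-0.46, adjusted p = 0.0014), LRRC8D (-0.29, adjusted p = 0.0123) and TRPM7 (-0.27, adjusted p = 0.0223) were called, LRRC8B (-0.34, adjusted p = 0.0768) and TMEM63B (0.15, adjusted p = 0.0511) were not. PIEZO1 and TMEM63A were called with and without these libraries, at 0.37 and 0.32 with all and at 0.40 and 0.36 without library 44.

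The potassium channels showed no called change at 9 g. KCNA3 had 8.77, 10.6 and 13.9 CPM (lowest, median and highest) in Ctrl and 7.88, 9.02 and 9.36 in hypg60, against 8.11, 10.8 and 17.0 in Ctrl60. Its groups overlapped throughout. Its log2 fold changes ran from -0.36 (hypg60, adjusted p = 0.103, lower in 6 of 6) to 0.00, but the value after 60 min rested on library 9, without which it was -0.17 (adjusted p = 0.340). With all libraries and the correction for GC content it passed the threshold (-0.51, adjusted p = 0.0203). KCNN4 stood between -0.19 and 0.43, with group means of 0.392 to 0.656 CPM and no neighbours in the order of the 9 g groups apart by more than the larger SD.

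Counted over the members, 2 of 10 passed the test after 20 s, both higher, where 15.2% of all genes tested did (6.66% higher and 8.58% lower). After 75 s 3 passed, all higher (31.3% of all genes, 16.8% higher and 14.4% lower), and after 3 min 6, with 4 higher and 2 lower (41.3%, 16.9% and 24.4%). After 5 min 1 passed (6.02%, 4.33% and 1.69%), after 7 min 2 (12.8%, 6.64% and 6.19%) and after 9 min 2 (19.6%, 11.3% and 8.34%), all higher. After 15 min 7 passed, 3 higher and 4 lower (53.4%, 25.4% and 27.9%), and after 60 min 2, both higher (30.1%, 17.1% and 13.0%). Set against these shares, the members were called about as often as genes in general. Without library 44 the count after 60 min was 7, with 3 higher and 4 lower (of all 16417 genes tested, 3482 higher and 3637 lower). Without library 9 it was 2 (of 16457, 3269 higher and 1584 lower), and without both it was 5 (of 16273, 3567 higher and 3741 lower). Without Ctrl library 3 the count was 4 after 3 min (of 16262 genes, 2316 higher and 3504 lower) and 2 after 5 min (of 16418, 580 higher and 163 lower). The median log2 fold change of the 10 members lay between -0.09 and 0.08 in the 8 comparisons, and that of all genes between -0.02 and 0.02.

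At 300 g most of the members passed the test, as did most of all genes. In wait1min 8 of 10 passed, 5 higher and 3 lower, where 81.5% of all genes tested did (41.4% higher and 40.1% lower). In wait4min 7 passed (82.2% of all genes, 41.7% higher and 40.6% lower) and in wait15min 7 (82.3%, 41.8% and 40.5%), with 5 members higher and 2 lower in each, so the members' share was about that of all genes. The same 5 were higher at every wait (39.2% of all genes) and the same 2, LRRC8A and TMEM63B, lower (38.6%). The median log2 fold change of the members was 0.17, 0.16 and 0.20, where that of all genes was 0.01 each time. The 3 comparisons, and that of heat, share the Ctrl300 libraries. With library totals in place of TMM, the median of all genes shifted by 0.24, 0.26 and 0.26, and with the correction for GC content by -0.12 each time, so the direction of small changes at 300 g depends on the scaling.

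Without the correction for GC content, TRPM7, LRRC8B and LRRC8C had the largest changes, while with it KCNA3 did. TRPM7 had 43.9, 36.8, 37.1 and 34.5 CPM in the Ctrl300 libraries, 142, 152, 153 and 146 in wait1min, 139, 136, 143 and 144 in wait4min and 138, 144, 147 and 145 in wait15min. LRRC8B had 8.46, 8.80, 8.45 and 7.74 CPM in Ctrl300, 35.3, 31.9, 34.4 and 35.5 in wait1min, 34.7, 31.6, 33.3 and 35.0 in wait4min and 35.3, 35.3, 35.1 and 34.8 in wait15min. LRRC8C had 9.45, 9.35, 8.06 and 8.01 CPM in Ctrl300, 32.2, 41.1, 36.9 and 38.1 in wait1min, 34.7, 35.9, 35.4 and 35.8 in wait4min and 33.5, 36.6, 34.8 and 35.2 in wait15min. For each gene all 12 centrifuged libraries lay far above all Ctrl300 libraries.

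TRPM7 was upregulated 3.87-fold in wait1min (log2 fold change 1.95, SE 0.06, adjusted p = 4.22e-15, higher in 4 of 4 libraries), 3.69-fold in wait4min (1.88, SE 0.05, adjusted p = 3.76e-19, 4 of 4) and 3.76-fold in wait15min (1.91, SE 0.05, adjusted p = 2.16e-16, 4 of 4). LRRC8B rose 4.07-fold (2.02, SE 0.06, adjusted p = 5.23e-15, 4 of 4), 4.02-fold (2.01, SE 0.06, adjusted p = 1.76e-18, 4 of 4) and 4.19-fold (2.07, SE 0.05, adjusted p = 1.18e-16, 4 of 4). LRRC8C rose 4.25-fold (2.09, SE 0.08, adjusted p = 1.87e-13, 4 of 4), 4.08-fold (2.03, SE 0.06, adjusted p = 1.49e-18, 4 of 4) and 4.03-fold (2.01, SE 0.06, adjusted p = 9.77e-16, 4 of 4). These 3 genes, together with KCNA3, were among the 20.9% of genes called higher with a log2 fold change above 1 in all 3 comparisons, 3514 of 16786. With the correction for GC content they stayed upregulated but less so, at 0.71, 0.68 and 0.64 in wait1min.

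KCNA3 was upregulated too. Its libraries had 12.3, 11.8, 11.5 and 12.0 CPM in Ctrl300, 32.7, 30.5, 33.1 and 26.9 in wait1min, 30.3, 33.4, 29.2 and 30.8 in wait4min and 32.3, 31.4, 31.5 and 29.1 in wait15min. No centrifuged library came near the controls. The change was 2.57-fold (log2 fold change 1.36, SE 0.07, adjusted p = 2.37e-12, 4 of 4), 2.59-fold (1.37, SE 0.05, adjusted p = 4.93e-16, 4 of 4) and 2.61-fold (1.38, SE 0.05, adjusted p = 2.73e-14, 4 of 4). KCNA3 was the member that differed most from genes of similar base composition: in wait1min the 1024 genes within 1 percentage point of its GC content had a median of -0.58, 98.3% of them lay below it, and the corrected value was 1.78. For TRPM7, 78.9% of 1296 such genes lay below it (median 1.29), for LRRC8B 77.3% of 1201 (median 1.43) and for LRRC8C 76.4% of 1069 (median 1.58).

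LRRC8D also rose, by a smaller fold change than its neighbours on chromosome 1. It had 29.5, 23.8, 29.8 and 27.3 CPM in Ctrl300, 34.9, 39.9, 37.4 and 36.8 in wait1min, 35.5, 35.9, 33.8 and 37.3 in wait4min and 35.9, 36.0, 35.8 and 35.5 in wait15min. The groups did not overlap. The log2 fold change was 0.42 (SE 0.07, adjusted p = 1.28e-05, 4 of 4), 0.36 (SE 0.06, adjusted p = 4.47e-06, 4 of 4) and 0.37 (SE 0.06, adjusted p = 8.59e-06, 4 of 4), but with the correction for GC content the direction turned, to -0.27, -0.30 and -0.29.

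LRRC8A, in contrast, was downregulated. It had 92.3, 93.4, 95.1 and 92.0 CPM in Ctrl300, 53.1, 51.2, 48.7 and 49.3 in wait1min, 52.9, 51.2, 53.0 and 52.9 in wait4min and 56.7, 54.5, 51.4 and 51.6 in wait15min. All centrifuged libraries were well below all controls. The ratio to Ctrl300 was 0.539 (log2 fold change -0.89, SE 0.04, adjusted p = 6.36e-13, lower in 4 of 4), 0.562 (-0.83, SE 0.03, adjusted p = 4.31e-16, 4 of 4) and 0.574 (-0.80, SE 0.04, adjusted p = 5.06e-13, 4 of 4). With library totals the value in wait1min was -0.65 and with the correction for GC content -0.48, both called, while in TPM its level differed less, from 37.8 in Ctrl300 to 32.1, 35.2 and 36.2.

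**Figure D2:**
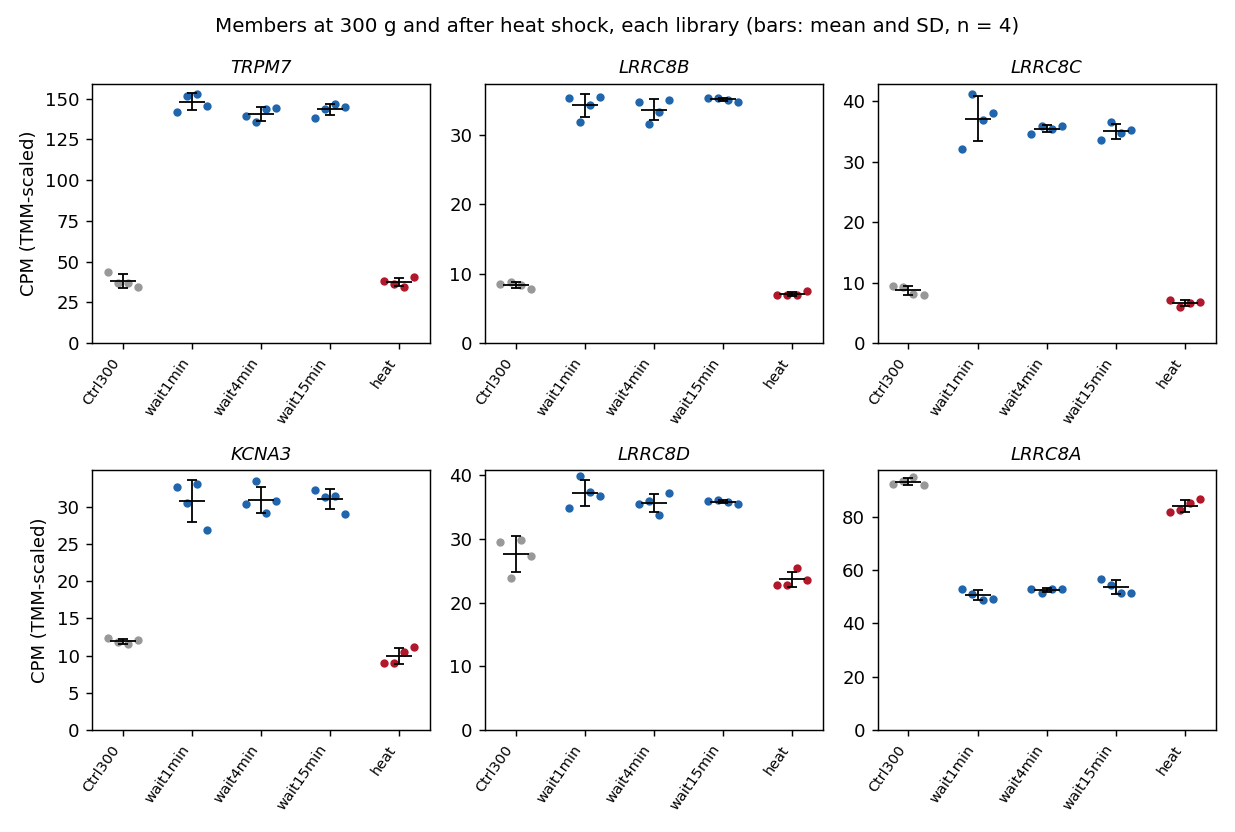
Levels of TRPM7, LRRC8B, LRRC8C, KCNA3, LRRC8D and LRRC8A in TMM-scaled CPM (vertical axis) in each library of Ctrl300, wait1min, wait4min, wait15min and heat (points), with the group mean and SD (bars, n = 4). TRPM7, LRRC8B, LRRC8C and KCNA3 are high in all 12 libraries lysed after 300 g and low in Ctrl300 and heat, LRRC8A is low after 300 g, and the smaller rise of LRRC8D turns to -0.27 in wait1min with the correction for GC content.

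The make-up of the volume-regulated anion channel transcripts was followed as each subunit's share of the summed LRRC8A to LRRC8E level per kilobase. In Ctrl300, LRRC8A made up 65.0% ± 1.28 (SD, n = 4), and in wait1min, wait4min and wait15min 37.7%, 39.1% and 39.5%. LRRC8B went from 3.68% to 16.1%, 15.8% and 16.3%, LRRC8C from 2.704% to 12.3%, 11.7% and 11.5%, and LRRC8D from 20.7% to 29.8%, 28.5% and 28.4%. LRRC8E, the remaining subunit, went from 7.93% to 4.23%, 4.801% and 4.27%. The summed partners thus stood at 0.538 of LRRC8A in Ctrl300 and at 1.66, 1.56 and 1.53 of it after 300 g, and these ratios do not depend on how a library is scaled, though the subunits differ in GC content. With the correction for GC content the subunits lay closer together in wait1min, at -0.48 for LRRC8A, 0.68 for LRRC8B, 0.64 for LRRC8C and -0.27 for LRRC8D. The shares and ratios are not corrected for it, and a corrected rise would be smaller. At 9 g LRRC8A made up 68.4% ± 1.60 (SD, n = 6) in Ctrl, 71.7% in hypg20s, 71.8% in hypg75s, 74.4% in hypg3, 70.3% in hypg5, 68.7% in hypg7, 69.7% in hypg9 and 73.8% in hypg15, and 71.1% in hypg60 against 67.8% in Ctrl60. In Ctrl, hypg3 and hypg15, LRRC8D made up 17.5%, 12.9% and 12.7%, and the ratio of partners to LRRC8A was 0.462, 0.345 and 0.356, while it was 0.456 in hypg7. In heat, LRRC8A stood at 65.5% and the ratio at 0.526.

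**Figure D3:**
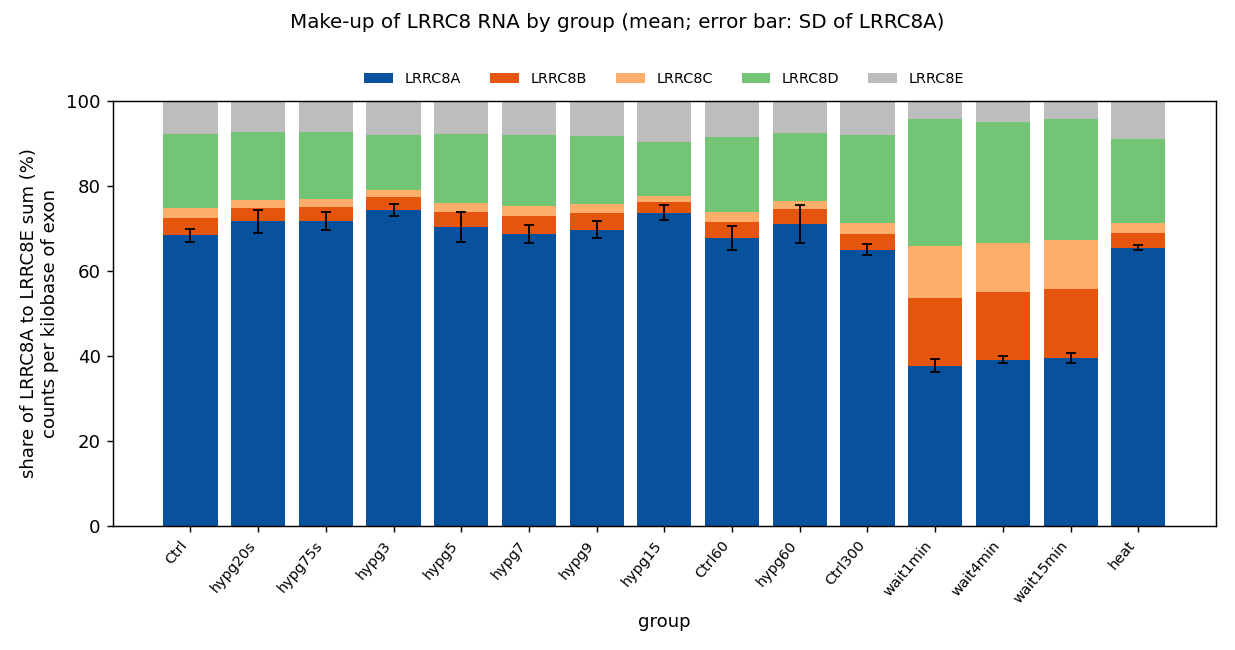
Mean share of each subunit in the summed LRRC8A to LRRC8E level per kilobase (vertical axis, percent) in each of the 15 groups (stacked bars), with the SD of LRRC8A. LRRC8A takes 65.0% in Ctrl300 and 37.7% in wait1min, with LRRC8B, LRRC8C and LRRC8D taking larger shares.

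With TMM scaling the stretch-activated channels changed little at 300 g, but both the size and the direction of their changes depended on the scaling. PIEZO1 had 624, 620.3, 604 and 609 CPM in Ctrl300, 576, 561, 568 and 577 in wait1min, 596, 598, 591 and 597 in wait4min and 604, 621, 601 and 599 in wait15min. The first 2 waiting times lay just below Ctrl300, and wait15min overlapped it. The log2 fold change was -0.12 in wait1min (SE 0.03, adjusted p = 0.00367, lower in 4 of 4), -0.05 in wait4min (adjusted p = 0.0580, 4 of 4) and -0.02 in wait15min (adjusted p = 0.466, 3 of 4), but with library totals it was 0.13, 0.21 and 0.24 and with the correction for GC content 0.38, 0.41 and 0.44. The value in wait4min passed the threshold without Ctrl300 library 51 (-0.06, adjusted p = 0.0171). In TPM, PIEZO1 stood at 115 in Ctrl300 and at 167, 184 and 189 after 300 g, TMEM63A at 15.1 and at 22.6, 24.5 and 25.9, and TMEM63B at 13.3 and at 17.0, 17.3 and 18.4.

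TMEM63B had 30.4, 26.4, 27.2 and 27.5 CPM in Ctrl300, 24.9, 21.5, 21.2 and 23.1 in wait1min, 20.4, 22.3, 21.3 and 23.4 in wait4min and 24.2, 23.0, 22.2 and 23.2 in wait15min. All centrifuged libraries were below all controls on this scale. Its log2 fold change was -0.31 (SE 0.06, adjusted p = 0.000154, 4 of 4), -0.35 (SE 0.05, adjusted p = 3.41e-06, 4 of 4) and -0.27 (SE 0.05, adjusted p = 0.000108, 4 of 4), but with library totals it was -0.06, -0.09 and -0.01 and not called, and with the correction for GC content 0.09, 0.02 and 0.10 and not called. TMEM63A was not called, at -0.08, -0.03 and 0.04, where library totals gave 0.17 and 0.23 in wait1min and wait4min. With the correction for GC content it was called higher at all 3 waits (0.10, 0.14 and 0.20, adjusted p = 0.0195, 0.000146 and 3.84e-06). Without library 53 its value in wait1min was called (-0.10, adjusted p = 0.0491). KCNN4 had 0.797, 0.629, 0.773 and 0.755 CPM in Ctrl300 and 0.450, 0.557, 0.573 and 0.557 in wait15min, just below the controls. It was not called at any waiting time (-0.24, -0.27 and -0.47), and passed in wait15min without Ctrl300 library 50 (-0.53, adjusted p = 0.0488).

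KCNA3 transcripts per kilobase exceeded those of KCNN4 by a ratio of 22.4 ± 2.39 in Ctrl300, 69.0 ± 16.4 in wait1min, 69.7 ± 4.53 in wait4min and 80.9 ± 12.1 in wait15min (SD, n = 4 each). In heat the ratio was 19.7, and in Ctrl it was 35.4 ± 17.0 (SD, n = 6). The ratio rests on the low counts of KCNN4, 8 to 28 per library, whose change was not called. In Ctrl it ran from 17.9 to 66.0, overlapping with wait1min (46.5 to 84.6) and wait4min (64.9 to 74.6).

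Between the shortest and the longest wait after 300 g, no member was called. In wait15min against wait1min, 0 of 10 passed edgeR's test, where 0.149% of all genes tested did (0.0115% higher and 0.138% lower), and DESeq2 also called 0. At an unadjusted p under 0.05 there were 3, as were 2192 of all 17446 genes: PIEZO1 (0.09, adjusted p = 0.253, higher in 4 of 4), TMEM63A (0.12, adjusted p = 0.291, 4 of 4) and LRRC8A (0.09, adjusted p = 0.391, 4 of 4). In the order of means, wait15min and wait4min of PIEZO1 differed by more than the larger SD without overlap (606 ± 10.2 and 595 ± 3.14 CPM), as did wait4min and wait1min (571 ± 7.31). For TRPM7, LRRC8B, LRRC8C, LRRC8D and KCNA3 the 3 waiting times differed by less than the larger SD from neighbour to neighbour, and the step to Ctrl300 exceeded it.

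After heat the number of members called depended on the model. PIEZO1 had 626, 616, 627 and 663 CPM after heat, overlapping Ctrl300, and LRRC8C had 7.19, 6.03, 6.64 and 6.82, all below Ctrl300. In heat 2 of 10 passed the test (20.8% of all genes tested, 10.6% higher and 10.2% lower): PIEZO1 rose (0.11, SE 0.03, adjusted p = 0.00947, higher in 4 of 4) and LRRC8C fell (-0.31, SE 0.09, adjusted p = 0.0170, lower in 4 of 4). The PIEZO1 call ended with the correction for GC content (-0.00) and in a single model of all groups (0.04, adjusted p = 0.245). The LRRC8C call ended without Ctrl300 library 50 (-0.28, adjusted p = 0.0511) or heat library 66 (-0.28, adjusted p = 0.0504), and held with the GC correction (-0.30). With the GC correction 4 members were called, all lower, and of all 16655 genes 1537 were called higher and 3514 lower. In a single model of all groups 5 were, all lower, and of 18621 genes 1461 were higher and 4027 lower.

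LRRC8A (82.0, 82.4, 85.4 and 86.8 CPM after heat), LRRC8B (6.88, 6.90, 6.92 and 7.54) and KCNA3 (8.96, 9.03, 10.5 and 11.2) also lay below all Ctrl300 libraries. Their log2 fold changes of -0.08, -0.18 and -0.20 missed the threshold (adjusted p = 0.0882, 0.120 and 0.0806, each lower in 4 of 4). With the GC correction LRRC8A (-0.16, adjusted p = 0.000562), LRRC8D (-0.17, adjusted p = 0.0234) and KCNA3 (-0.28, adjusted p = 0.00548) were called lower, and in the single model LRRC8A (-0.15), LRRC8B (-0.25), LRRC8D (-0.23) and KCNA3 (-0.26) were. KCNA3 passed it without heat library 68 (-0.25, adjusted p = 0.0379) and LRRC8D without Ctrl300 library 50 (-0.22, adjusted p = 0.0134). TRPM7, at 37.9, 36.2, 34.7 and 40.5 CPM, overlapped Ctrl300 and stood at 0.04. None of TRPM7, LRRC8B, LRRC8C and KCNA3, all upregulated after 300 g, was called higher after heat.

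The 5 min spins at 9 g and at 300 g were compared directly, as the log2 fold change of wait1min against Ctrl300 minus that of hypg5 against Ctrl. In this difference 9 of 10 members passed the test (72.6% of all genes tested, 34.7% higher and 37.9% lower), 5 higher and 4 lower. It was 2.19 for LRRC8B (SE 0.26, adjusted p = 7.77e-08), 2.13 for LRRC8C (SE 0.18, adjusted p = 1.04e-09), 2.10 for TRPM7 (SE 0.18, adjusted p = 1.40e-09), 1.53 for KCNA3 (SE 0.17, adjusted p = 2.97e-08) and 0.51 for LRRC8D (SE 0.11, adjusted p = 0.000356). For LRRC8A it was -0.96 (SE 0.08, adjusted p = 4.57e-10). For PIEZO1 it was -0.31 (SE 0.06, adjusted p = 3.79e-05), for TMEM63B -0.30 (SE 0.09, adjusted p = 0.00532) and for TMEM63A -0.21 (SE 0.06, adjusted p = 0.00459), but with the correction for GC content these 3 turned to 0.29, 0.15 and 0.01 and LRRC8D to -0.23, and with library totals TMEM63A was 0.01. KCNN4 was not called (-0.67, SE 0.34, adjusted p = 0.0832). Force, centrifuge, vessel and the wait before lysis all differ between the groups and cannot be told apart.

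**Figure D4:**
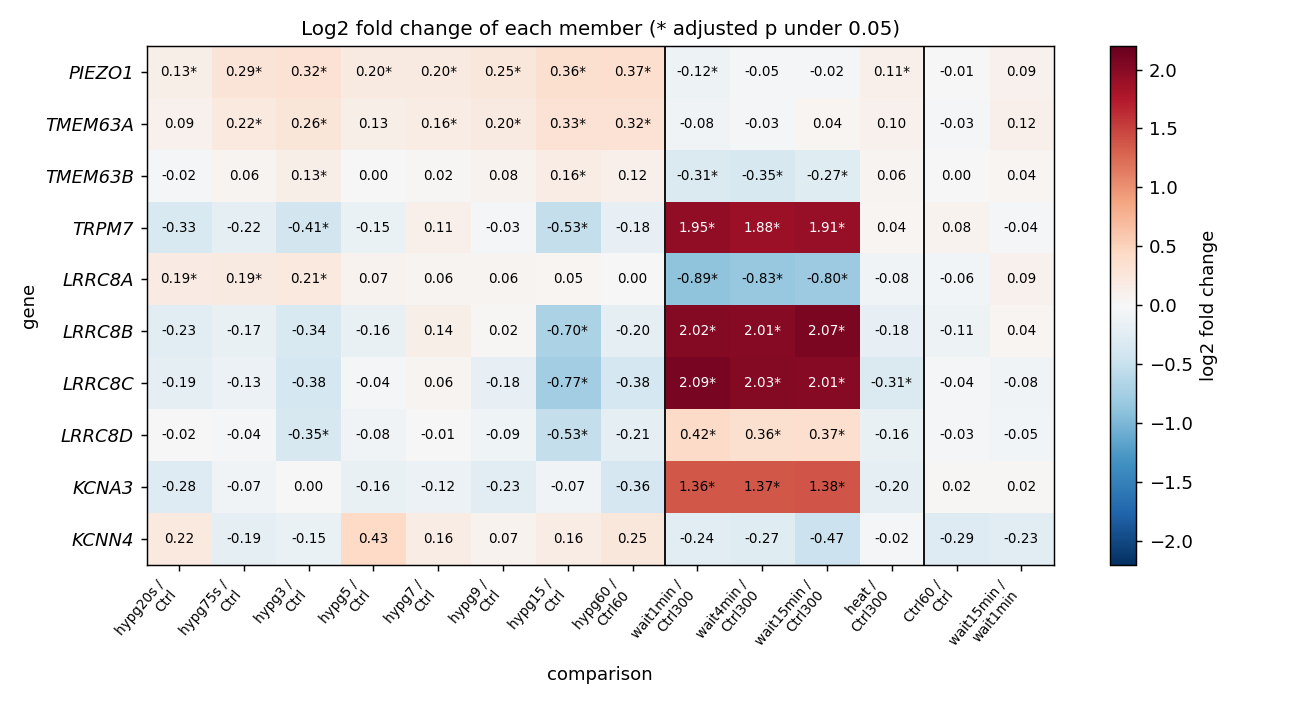
Log2 fold change (colour) of each member (vertical axis) in each of 14 comparisons (horizontal axis), with an asterisk where the value was called. TRPM7, LRRC8B, LRRC8C and KCNA3 reach 1.36 to 2.09 after 300 g and none of them is called higher at 9 g, while PIEZO1 is called higher in all 8 comparisons at 9 g and its direction at 300 g turns with library totals.

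The members' changes went along with the base composition of their transcripts, as did those of all genes. Over all genes tested, Spearman's rho between GC content and log2 fold change was 0.59 in hypg20s, 0.56 in hypg75s, 0.67 in hypg3, 0.41 in hypg5, 0.10 in hypg7, 0.31 in hypg9, 0.67 in hypg15 and 0.39 in hypg60. After 300 g it was -0.69, -0.66 and -0.66, in heat 0.16 and in Ctrl60 against Ctrl 0.03. Over the 10 members it was 0.59, 0.43, 0.71, 0.54, 0.28, 0.48, 0.78 and 0.61 at 9 g in the same order, -0.72, -0.72 and -0.75 after 300 g and 0.48 in heat. These are descriptions across genes, which are not independent of each other, and the part of base composition in any member's change was not tested. Against genes within 1 percentage point of GC content in wait1min, LRRC8A lay above 19.8% of 1033 (median -0.58), LRRC8D above 38.8% of 1414 (median 0.62) and PIEZO1 above 81.3% of 512 (median -0.69).

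**Figure D5:**
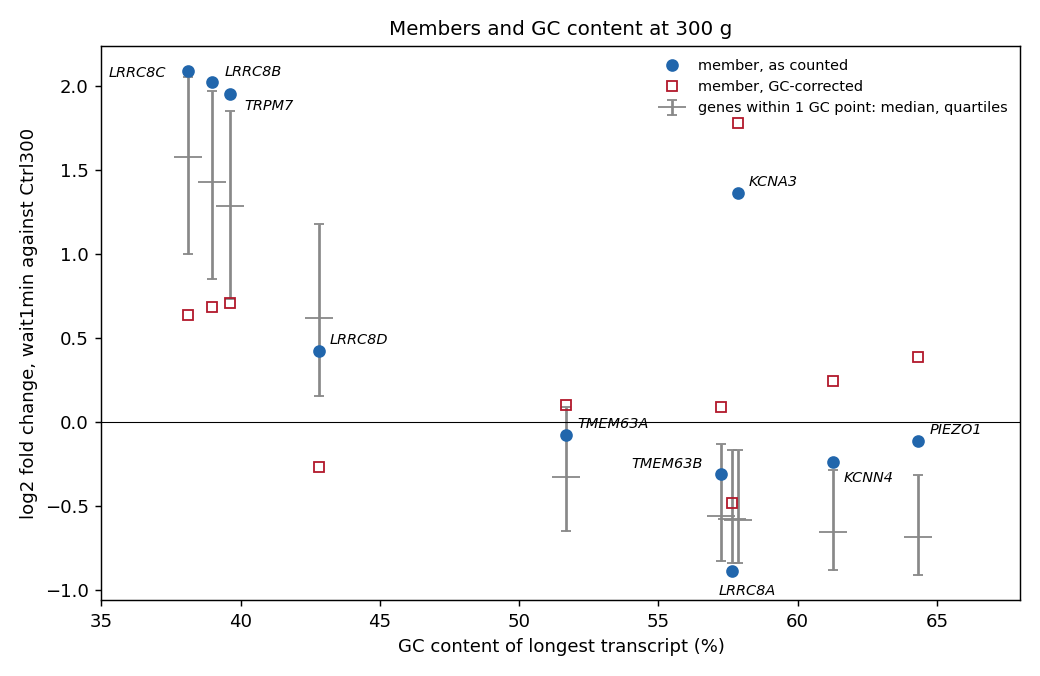
Log2 fold change in wait1min against Ctrl300 (vertical axis) of the 10 members as counted (filled circles) and corrected for GC content (open squares), against the GC content of the longest transcript in percent (horizontal axis), with the median and quartiles of the genes within 1 percentage point (grey). KCNA3 lies far above the genes of its GC content, while LRRC8D, TMEM63A, TMEM63B, PIEZO1 and KCNN4 change direction with the correction.

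Over the 12 comparisons of an exposure with its control, the log2 fold changes of many other genes correlated highly with those of most members. Among the 8989 genes whose mean level reached 10 CPM (8990 for KCNN4), the highest Pearson r with PIEZO1 was 0.986 for ADGRB2 and 0.985 for DENND4B, and with TMEM63A 0.987 for TPCN2 and 0.985 for PIEZO1. For TMEM63B they were GAA (0.992) and FCHO1 (0.991), and for LRRC8A TBC1D25 (0.999) and MTSS2 (0.997). For several members such values were common: an r above 0.99 was reached by 236 genes for LRRC8A, by 1239 for TRPM7, led by ZZZ3 (0.9997) and PDIK1L (0.999), by 982 for LRRC8B, led by CERT1 and ARID2 (0.999 each), and by 598 for LRRC8C, led by POC5 (0.999) and SLAIN2 (0.998). For KCNA3 such genes numbered 18, led by ZNF37BP (0.995) and MIR181A1HG (0.993), and for LRRC8D 1, PCYOX1 (0.991), followed by KIF3B (0.989). The values for KCNN4 were lower, at 0.857 for SYNRG and 0.850 for RBBP4. These correlations are a description over 12 comparisons that partly share controls.

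Family relatives of the members were called in part of the comparisons, where edgeR called 6.02% (5 min) to 53.4% (15 min) of all genes at 9 g, and 81.5%, 82.2% and 82.3% at the waiting times after 300 g. TMEM63C rose at 75 s (0.26, adjusted p = 0.0199), 3 min (0.22, adjusted p = 0.0107) and 15 min (0.25, adjusted p = 0.0239) of 9 g and stood at -0.29, -0.37 and -0.28 after 300 g, all called. LRRC8E rose at 15 min (0.25, adjusted p = 0.0158) and fell after 300 g (-1.002, -0.82 and -0.97, all called), like LRRC8A and, without the correction for GC content, unlike the other partner subunits. With that correction LRRC8D was also lower (-0.27, -0.30 and -0.29), while the values of the relatives are given without it. KCNN2, a calcium-activated potassium channel, fell at 20 s (-0.35), 75 s (-0.26) and 3 min (-0.24), and KCNN1 fell in wait15min (-0.98, adjusted p = 0.0172). In heat 0 of the 4 relatives tested were called, and 20.8% of all genes.

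Of 19 genes for proteins that bind or regulate these channels, 16 were tested. At 9 g the numbers called higher and lower were 3 and 1 after 20 s, 6 and 5 after 75 s, 6 and 5 after 3 min, 0 and 1 after 5 min, 1 and 0 after 7 min, 2 and 1 after 9 min, 5 and 6 after 15 min and 3 and 2 after 60 min. Of all genes tested, 15.2%, 31.3%, 41.3%, 6.02%, 12.8%, 19.6%, 53.4% and 30.1% were called at these times. CALM2, which encodes the calmodulin that opens KCNN4, was called lower in 6 of the 8 comparisons, with log2 fold changes from -0.50 to -0.08 over all 8. CNNM4, a magnesium transporter that binds TRPM7 (0.10 to 0.32), and PIK3C2B, a lipid kinase needed for KCNN4 activity (0.08 to 0.28), were called higher in 6. After 300 g, 6 were higher and 10 lower in wait1min and 5 and 10 at the later times, where 81.5%, 82.2% and 82.3% of all genes were called, with DLG1, a scaffold of KCNA3, at 1.52 to 1.58, ARL15, a partner of the CNNM transporters, at 1.02 to 1.24 and MTMR6, a lipid phosphatase acting against KCNN4, at 1.04 to 1.16. The partners' values after 300 g are not corrected for GC content, and 20.9% of all genes were called higher with a log2 fold change above 1 at all 3 waiting times. In heat 1 was higher, CALM2 (0.25), and 1 lower, PIK3C2B (-0.11), where 20.8% of all genes were called.

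Of 11 other mechanosensitive channels, 4 were high enough to test. PKD1, a membrane protein of the primary cilium, was called higher in all 8 comparisons at 9 g (0.22 to 0.51), as PIEZO1 was, and it was the 1 gene of the list called at each time except 15 min, when 2 were (6.02% to 53.4% of all genes were called at these times). These values of PKD1 are not corrected for GC content, and with that correction the PIEZO1 calls after 20 s, 5 min and 15 min ended. After 300 g, 1 was higher and 1 lower at each waiting time (81.5%, 82.2% and 82.3% of all genes), with PKD2, the cation channel that pairs with PKD1, at 1.46 to 1.501. PKD2 too is given without the correction for GC content, and 20.9% of all genes were called higher with a log2 fold change above 1 at all 3 waiting times. In heat edgeR called 0 of the 4, and 20.8% of all genes.

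All 21 genes for transporters and regulators of cell volume were tested. The numbers called higher and lower were 3 and 4 after 20 s, 4 and 7 after 75 s, 4 and 7 after 3 min, 2 and 0 after 5 min, 4 and 3 after 7 min, 3 and 1 after 9 min, 3 and 9 after 15 min and 2 and 2 after 60 min, to be read against the shares of all genes from 6.02% (5 min) to 53.4% (15 min). SLC12A4, a potassium-chloride cotransporter, was called higher in 7 of the 8 comparisons (0.16 to 0.40 over all 8), and STK39, a kinase that activates sodium-potassium-chloride cotransport, was called lower in 6 (-0.56 to -0.15). After 300 g, 11 were higher and 9 lower at each waiting time, where 81.5%, 82.2% and 82.3% of all genes were called. NFAT5, the transcription factor of the hypertonic response, stood at 2.02 to 2.10, SLC5A3, the inositol transporter, at 1.68 to 1.73, SLC12A2, the sodium-potassium-chloride cotransporter, at 1.67 to 1.71 and SLC38A2, an amino acid transporter, at 1.13 to 1.23. These 4 values are not corrected for GC content, and 20.9% of all genes were called higher with a log2 fold change above 1 at all 3 waiting times. Whether the volume genes differ from that general shift was not tested. In heat, where 20.8% of all genes were called, 2 were higher, with SLC12A4 at 0.14, and 5 lower, with CAB39, a partner of STK39, at -0.34. In the difference of changes between 300 g and 9 g, the numbers higher and lower were 1 and 2 of the relatives, 6 and 10 of the channel partners, 1 and 2 of the other mechanosensitive channels and 10 and 9 of the volume genes, where 34.7% of all genes were higher and 37.9% lower. Between the controls of 15 min and 60 min, and between wait15min and wait1min, edgeR called 0 genes of these lists.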

How the data were processed

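The authors deposited raw counts of read pairs per gene, made with Trim Galore 0.6.5, STAR 2.7.3a and featureCounts (reverse strand, Ensembl 104), together with each gene's summed exon length in bases as deposited. Of its genes 60663 had a usable record, and 1 further gene, ANK2, whose record was broken over 3 lines, was left out. Library 75 was left out for its missing chromosomes.

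Each comparison was fitted on its own groups with edgeR 4.0.16 in R 4.3.3 (filterByExpr with a minimum count of 10, TMM, quasi-likelihood F test, Benjamini-Hochberg over all genes tested, 0.05). The SE is the log2 fold change divided by the root of F. The scripts were tested on simulated data. Alternatives were no filter, RLE or library totals in place of TMM, DESeq2 1.42.0, a single model of all groups, a lowess correction for GC content (span 0.3, GC content of the longest transcript of 58336 genes, GENCODE 29), library 75 kept, and 1 library left out in turn, each of the groups of 4 and of hypg15, but only library 3 of Ctrl, 9 of Ctrl60 and 44 of hypg60 among the groups of 6. TPM and shares were computed from counts per exon length. Promoters were read from RefSeq.

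Lists of family relatives, channel partners, other mechanosensitive channels, volume regulation and cell markers were written by symbol. Members and lists were chosen with earlier results of these data known. Named in the text are all members and the relatives, and from the 3 other channel lists up to 4 genes each that were called in the same direction in at least 6 of 8 comparisons at 9 g, up to 4 called in all 3 at 300 g with a log2 fold change beyond 1, and the largest called change in each direction after heat. Not every gene of the lists is reported here by name. The genes most like each member are the 2 with the highest Pearson r over 12 log2 fold changes.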

Additional observations from a re-analysis of the deposited data

Results flagged for a closer look

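Each member was checked in each of the 150 pairings of a member with a group for a library that lay outside the others (Dixon's gap over range). This found 12 of 150 groups, and chance flags about 1 in 20 groups. The libraries, in CPM with the range of the others, were PIEZO1 in hypg9 library 41 (531, others 474 to 494), TMEM63A in hypg3 library 73 (70.9, 59.8 to 63.6), TRPM7, LRRC8B and LRRC8C in hypg60 library 44 (48.9, 21.7 to 28.6; 13.1, 3.81 to 7.11; 8.74, 4.01 to 4.45), LRRC8A in hypg5 library 25 (81.5, 94.0 to 101) and wait4min library 58 (51.2, 52.9 to 53.0), LRRC8B in heat library 68 (7.54, 6.88 to 6.92), LRRC8C in hypg15 library 80 (2.44, 4.14 to 4.67), KCNA3 in hypg15 library 77 (14.8, 8.89 to 10.2), and KCNN4 in wait15min library 61 (0.450, 0.557 to 0.573) and heat library 66 (0.593, 0.729 to 0.730). The change at 300 g (wait1min) differed from that at 9 g (hypg5) for PIEZO1 by -0.31, TMEM63A by -0.21, TMEM63B by -0.30, TRPM7 by 2.10, LRRC8A by -0.96, LRRC8B by 2.19, LRRC8C by 2.13, LRRC8D by 0.51 and KCNA3 by 1.53 in log2 fold change. The causes were not tested.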

How the results depend on the processing

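Of 150 log2 fold changes, the value kept its call, and its direction if called in either fit, in 149 with RLE, 147 with DESeq2, 144 without a filter, 143 in a single model, 130 with library totals and 116 with the GC correction, and with 1 library left out in 623 of 640 (every library of the groups of 4 and of hypg15, but only libraries 3, 9 and 44 of the groups of 6). Counts of members called moved by over 1.5 times as follows. In hypg20s (2) it was 1 with library totals, 1 in a single model and 1 with the GC correction. In hypg3 (6) it was 2 with the GC correction. In hypg5 (1) it was 2 with library totals, 2 with DESeq2, 0 with the GC correction and 2 without library 3. In hypg7 (2) it was 1 without a filter, in hypg15 (7) it was 4 with the GC correction. In hypg60 (2) it was 4 with the GC correction, 2 to 7 with 1 library left out (2 without library 9, 7 without library 44) and 5 without libraries 9 and 44. In heat (2) it was 5 in a single model, 4 with the GC correction and 1 to 3 with 1 library left out (1 without library 66, 3 without library 68). Values called in neither fit could turn as well and are not listed, such as LRRC8B in hypg20s (-0.23, with the GC correction 0.0191). Among values called in either fit, direction turned with the GC correction for TMEM63B in hypg3 (-0.00457) and hypg15 (-0.0469), LRRC8A in hypg15 (-0.17) and PIEZO1 in heat (-0.00158), and with library 75 kept for TMEM63B in hypg15 (-0.10). In wait1min it turned with library totals for TMEM63A (0.17) and PIEZO1 (0.13), and with the GC correction for LRRC8D (-0.27), TMEM63A (0.10), TMEM63B (0.0888) and PIEZO1 (0.38). In wait4min it turned with library totals for TMEM63A (0.23) and PIEZO1 (0.21), and with the GC correction for LRRC8D (-0.30), TMEM63A (0.14), TMEM63B (0.0217) and PIEZO1 (0.41). In wait15min it turned with library totals for PIEZO1 (0.24), and with the GC correction for LRRC8D (-0.29), TMEM63B (0.10) and PIEZO1 (0.44). In the difference of changes it turned with library totals for TMEM63A (0.0109), and with the GC correction for LRRC8D (-0.23), TMEM63A (0.00676), TMEM63B (0.15) and PIEZO1 (0.29). Leaving out libraries 3, 9 and 44 was chosen after seeing the data, and the cause was not tested. No paired analysis was possible because every library has its own number and the groups share none.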
